A study of Mus musculus with 21 samples.

Results

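The promoter regions of *Crmp1*, *Grm7*, *Hand1* and *Pdpn* carried methylation differences between intestinal adenoma and normal intestine of the APCMin mouse. These 4 genes were followed here through every listed region that overlapped the gene body or the 1000 bp upstream of it. Of the 13980 merged differentially methylated regions (DMRs) of the series, 5 overlapped the 4 genes, and of the 17690 listed windows of 500 bp, 8 did. All 5 DMRs were among the 5135 listed as hypermethylated in adenoma, and none of the 8845 hypomethylated DMRs overlapped any of the 4 genes. The members were selected on the contrast of adenoma with normal intestine, since only windows that passed the authors' rank test, ratio and level criteria in that contrast were listed. The adenoma values are therefore given as a description, with no test.

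DNA methylation was profiled by MeDIP-seq, in which an antibody against 5-methylcytidine pulls down methylated DNA fragments before sequencing. All mice were male C57BL/6J animals of 15 to 19 weeks, and all tissue came from the ileum. The samples were 3 of normal tissue from wild-type (Apc +/+) B6 mice (B1, B2, B3), 3 of normal tissue from Apc-Min/+ animals (N4, N5, N6), and 5 adenomas of Apc-Min/+ mice (Ad4, Ad4-1, Ad5, Ad6, Ad7). Ad4 and Ad4-1 came from 1 mouse, which also gave N4, while N5 and Ad5, and N6 and Ad6, were pairs from the same mouse. The Min allele is a germline truncating mutation of *Apc*, the Wnt pathway inhibitor, so the adenomas and the normal tissue of these mice shared it. Both tissues are mixtures of epithelium and other cells, and a different share of cell types and a different methylation per cell cannot be told apart in them. The 7 RNA samples of the study were not used here, so no marker gene and no expression of the 4 genes was available to set beside the methylation values.

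CpG methylation near the start of a gene is known mainly from CpG islands, stretches rich in CpG sites that usually stay unmethylated in normal tissue, and many of them gain methylation in tumours. Genes marked by Polycomb complexes in embryonic stem cells, often developmental regulators, are known to be frequent among those that gain it. The 4 genes have separate functions. *Crmp1* encodes a collapsin response mediator protein, a cytosolic protein that relays semaphorin 3A signals to the cytoskeleton of growing axons. *Grm7* encodes a presynaptic metabotropic glutamate receptor that couples to inhibitory G proteins. *Hand1* encodes a basic helix-loop-helix transcription factor of the developing heart and placenta. *Pdpn* encodes podoplanin, a mucin-type membrane glycoprotein of lymphatic endothelium and the ligand of the platelet receptor CLEC-2.

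The regions lay in different places relative to the gene starts of the gencode M1 annotation on the mm9 build. The *Crmp1* DMR (chr5:37633251-37634000, 750 bp, gene on the plus strand) began 68 bp before the 5′ end of the gene and ended 681 bp after it, and covered 381 bp of coding sequence, 65 bp of 5′ UTR and 236 bp of the first intron. The *Grm7* DMR (chr6:110595751-110596500, 750 bp, plus strand) lay wholly inside the gene, from 176 to 925 bp downstream of the start, with 519 bp of coding sequence, 111 bp of 5′ UTR and 120 bp of intron. It also overlapped the first exon of a processed transcript annotated on the opposite strand. *Hand1*, on the minus strand, carried a pair of DMRs. The *Hand1* promoter DMR (chr11:57646751-57647250, 500 bp) lay 431 to 930 bp upstream of the gene, and the *Hand1* gene-body DMR (chr11:57644751-57645500, 750 bp) lay 820 to 1569 bp downstream, with 538 bp of coding sequence and 212 bp of UTR. The latter also fell within 500 bp of the annotated start of the transcript *Hand1-001*, so it counts as a promoter region of that transcript. The *Pdpn* DMR (chr4:142889751-142890250, 500 bp, minus strand) lay 284 to 783 bp upstream of the gene and overlapped no annotated transcript.

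**Figure D1:**
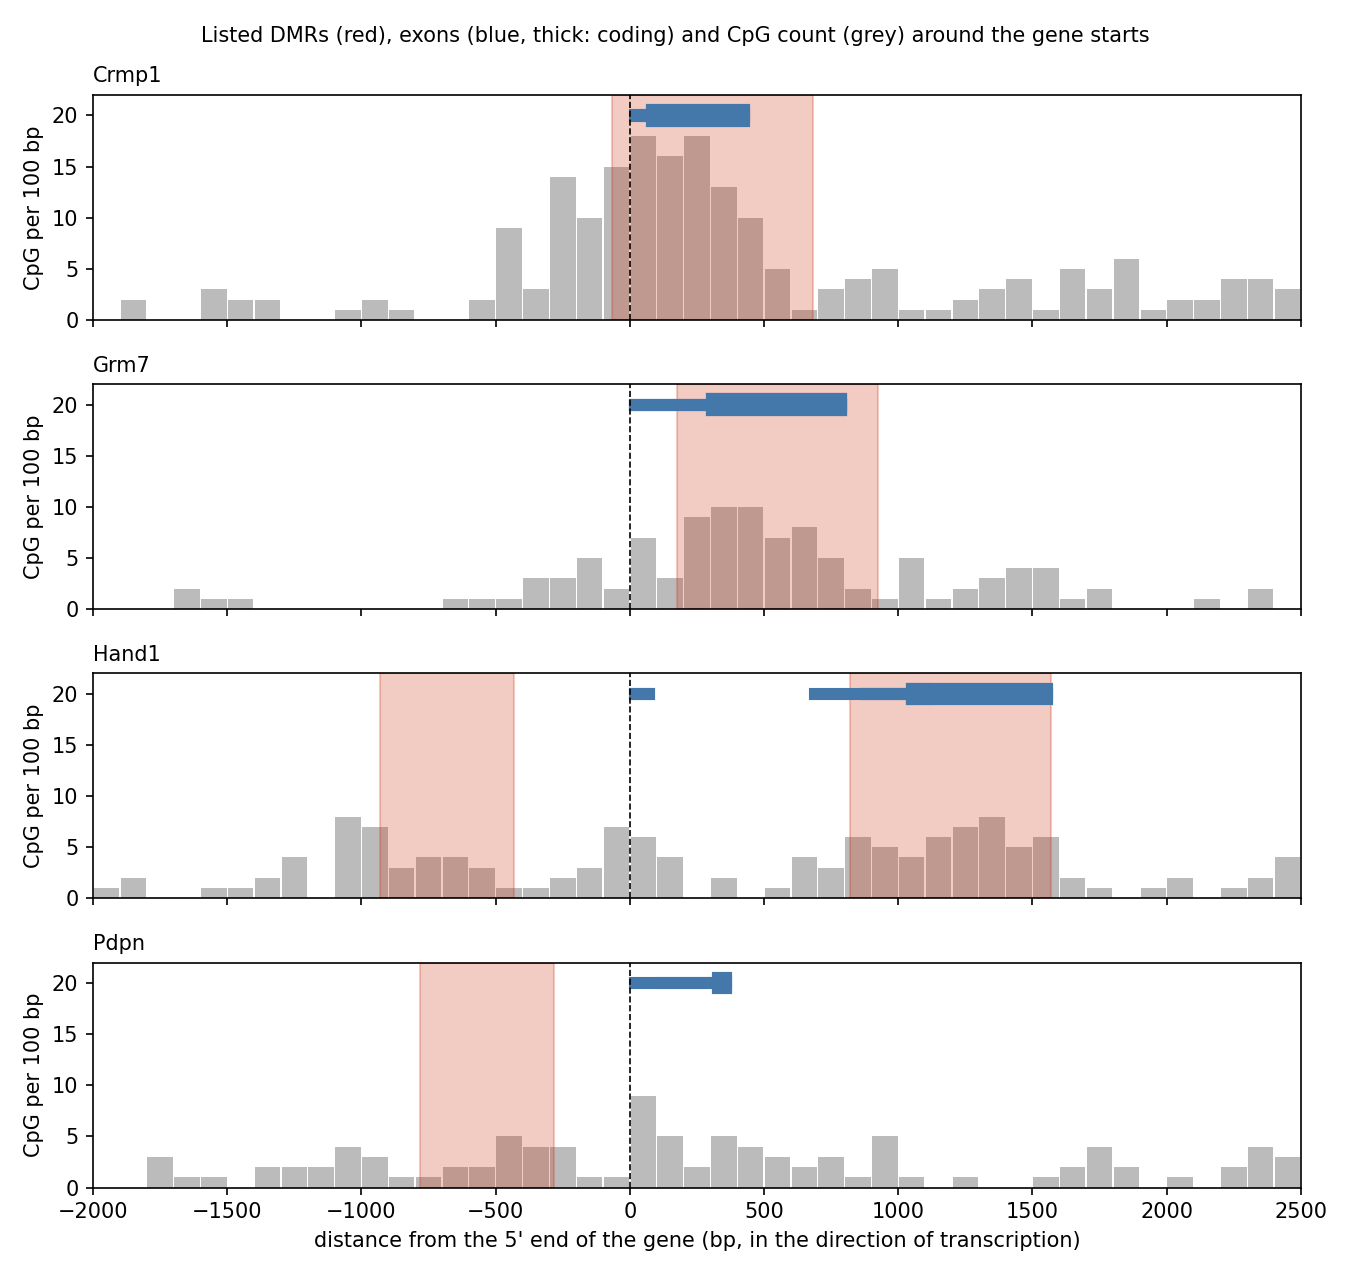
Position of the 5 DMRs (red) relative to the annotated 5′ end of each gene (dashed line at 0, distances in bp along the direction of transcription), with exons in blue (thick where coding) and the number of CpG sites per 100 bp as grey bars. The *Crmp1* and *Grm7* DMRs cover the CpG-rich first coding exon, the *Pdpn* and *Hand1* promoter DMRs lie upstream of the start, and the *Hand1* gene-body DMR covers most of the coding part of its first coding exon.

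The sequences show how far these regions differ in CpG content. For each promoter DMR the 300 bases outside any UTR that hold the most CpG sites are printed 5′ to 3′ on the strand of the gene, from the mm9 reference, with every CpG in capitals. The stretches are chr5:37633391-37633690 (plus strand) for *Crmp1* and chr6:110595937-110596236 (plus strand) for *Grm7*, both in coding sequence, and chr11:57646848-57647147 (minus strand) for *Hand1* and chr4:142889789-142890088 (minus strand) for *Pdpn*, both upstream of the gene.
Crmp1: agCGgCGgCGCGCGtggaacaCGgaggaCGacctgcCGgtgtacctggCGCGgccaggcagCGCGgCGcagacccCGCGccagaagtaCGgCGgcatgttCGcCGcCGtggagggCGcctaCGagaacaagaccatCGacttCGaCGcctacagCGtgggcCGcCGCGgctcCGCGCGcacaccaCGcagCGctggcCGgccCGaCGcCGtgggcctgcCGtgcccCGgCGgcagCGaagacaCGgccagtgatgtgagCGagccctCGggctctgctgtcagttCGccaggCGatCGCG
Grm7: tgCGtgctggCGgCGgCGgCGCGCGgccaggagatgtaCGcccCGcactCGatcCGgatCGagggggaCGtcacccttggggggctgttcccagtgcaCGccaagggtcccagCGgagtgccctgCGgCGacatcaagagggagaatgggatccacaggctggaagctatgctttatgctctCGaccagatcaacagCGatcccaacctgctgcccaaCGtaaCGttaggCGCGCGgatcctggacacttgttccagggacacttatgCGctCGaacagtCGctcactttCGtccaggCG
Hand1: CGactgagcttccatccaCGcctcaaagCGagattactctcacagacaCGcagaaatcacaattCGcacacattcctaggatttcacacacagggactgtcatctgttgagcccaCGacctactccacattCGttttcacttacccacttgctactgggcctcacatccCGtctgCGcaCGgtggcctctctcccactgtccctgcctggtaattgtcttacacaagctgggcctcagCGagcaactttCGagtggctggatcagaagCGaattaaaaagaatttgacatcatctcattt
Pdpn: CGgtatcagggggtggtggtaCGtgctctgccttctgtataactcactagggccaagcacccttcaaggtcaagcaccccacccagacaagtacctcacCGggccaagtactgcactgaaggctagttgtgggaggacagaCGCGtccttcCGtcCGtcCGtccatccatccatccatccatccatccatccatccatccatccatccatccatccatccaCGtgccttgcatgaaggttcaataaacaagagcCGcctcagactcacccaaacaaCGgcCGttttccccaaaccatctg

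The printed stretches held 49 CpG sites in *Crmp1*, 29 in *Grm7*, 13 in *Hand1* and 12 in *Pdpn*. In the *Pdpn* stretch, 60 bases were an unbroken run of 15 copies of the unit tcca, which holds no CpG. Over the whole DMR the count was 90 CpG sites in *Crmp1* (12.0 per 100 bp, GC content 71.6%), 53 in *Grm7* (7.07 per 100 bp), 45 in the *Hand1* gene body (6.00 per 100 bp), 16 in the *Hand1* promoter (3.20 per 100 bp) and 14 in *Pdpn* (2.80 per 100 bp). The median of the 405 hypermethylated DMRs in promoters of protein-coding genes was 2.2 CpG sites per 100 bp (quartiles 1.40 and 4.00), and that of all 5135 hypermethylated DMRs was 1.40. *Crmp1* stood at the 99.9th percentile of all hypermethylated DMRs in CpG density, and even *Pdpn*, the lowest of the 4 genes, stood at the 89.4th. The denser the region, the more CpG sites a pulled-down fragment can carry, so rpm values of different regions are not methylation levels on a common scale.

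All 5 DMRs overlapped a CpG island called from the sequence (300 bp or longer, at least 50% G and C, and CpG sites at 0.6 or more of the number expected from base composition). This held for 745 of the 5135 hypermethylated DMRs (14.5%) and for 170 of the 405 promoter ones (42%). With stricter limits (500 bp, 55% and 0.65) the islands at *Crmp1*, *Grm7* and both *Hand1* DMRs remained. The one at *Pdpn* did not. Such an island overlapped 5.90% of all hypermethylated DMRs and 29.1% of the promoter ones. The GC box GGGCGG, searched on both strands, occurred once each in the *Crmp1* and *Hand1* gene-body DMRs and in none of the other 3, and the letters TATAAA occurred in none of the 5. Of 22380 protein-coding genes, 44.0% held a GC box and 24.6% TATAAA in the 500 bp upstream of the gene, and 46.4% and 36.1% in the 750 bp upstream. Among hypermethylated DMRs of the same length, a GC box was found in 12.8% of those of 500 bp and 21.6% of those of 750 bp, and TATAAA in 24.3% and 34.6%.

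Hypermethylated DMRs in the body or 1000 bp upstream were found in 11.1% of the 22380 protein-coding genes, and hypomethylated ones in 14.2%. A DMR in the promoter, from 1000 bp upstream to 500 bp downstream of any transcript start, was listed as hypermethylated for 1.79% of genes and as hypomethylated for 1.85%. The 4 genes were chosen for having one. *Grm7* spans 921650 bp, yet its start region carried its only listed DMR. Among the 200 protein-coding genes of at least 500000 bp, 54.0% had a hypermethylated and 58.5% a hypomethylated DMR, and 28, *Grm7* among them, had exactly 1 hypermethylated and no hypomethylated DMR. Outside the genes, the nearest other listed DMR was 71000 bp away from that of *Crmp1* (hypomethylated), 189500 bp from that of *Grm7* (hypomethylated) and 49500 bp from that of *Pdpn* (hypermethylated). The *Hand1* DMRs lay 1250 bp apart from each other.

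Before the values, the libraries need a description, because several normal samples departed from each other at CpG-rich regions. MeDIP libraries held 13878615 to 26297510 uniquely aligned reads. In the 3612 hypermethylated DMRs with under 2 CpG sites per 100 bp, the summed rpm of N5 was 0.983 times the mean of the other 5 normal samples. In the 101 DMRs with at least 6 per 100 bp it was 0.613 times that mean, and N5 was the lowest normal sample in 65.3% of them. B2 and N6 went the other way, at 1.34 and 1.21 times the mean of the others in the same 101 DMRs, against 1.02 and 1.04 in the CpG-poor ones. The 8 hypomethylated DMRs of that density gave 0.708 for N5 and 1.18 for B2. The adenomas stayed between 0.895 and 1.07 times the mean of the others in the 101 DMRs. *Crmp1*, *Grm7* and the *Hand1* gene body fall in this density class.

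**Figure D2:**
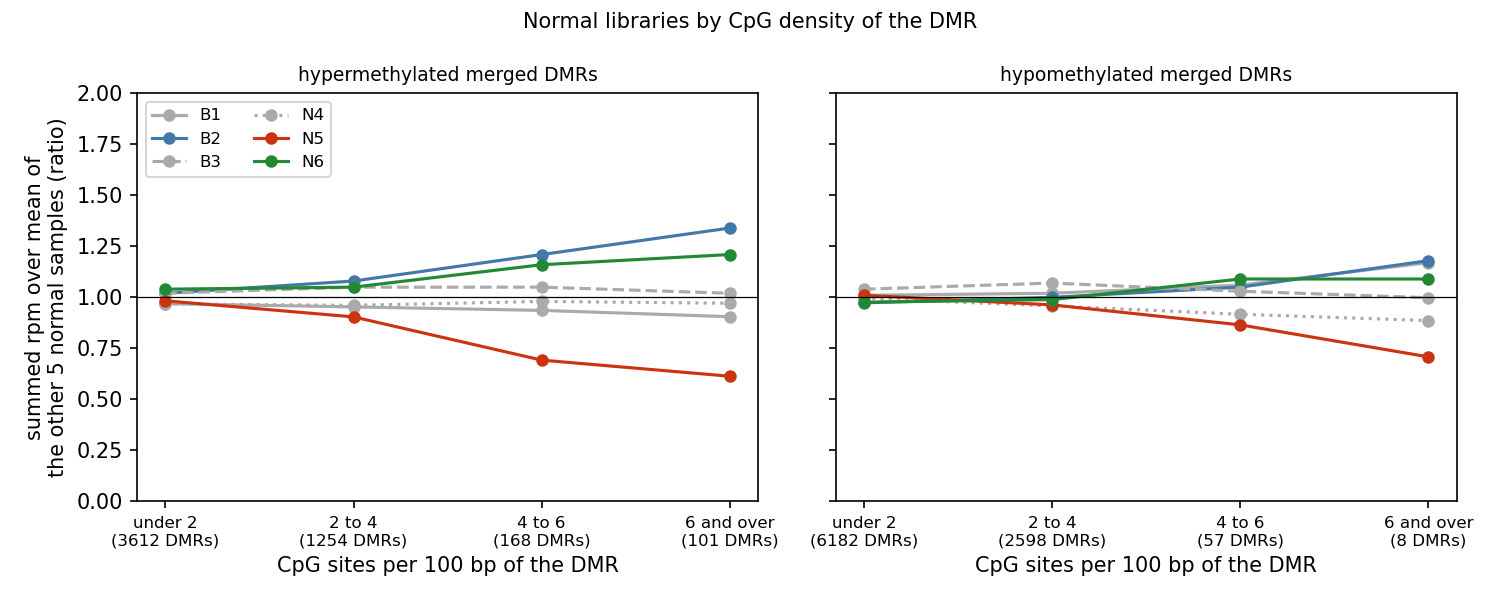
Summed rpm of each of the 6 normal samples, as a ratio to the mean of the other 5, over DMRs grouped by CpG sites per 100 bp (left, hypermethylated; right, hypomethylated; the number of DMRs under each class). All samples lie near 1 at under 2 CpG sites per 100 bp, and at 6 and over N5 lies at 0.613 and B2 at 1.34 among hypermethylated DMRs.

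At *Crmp1* the signal in normal intestine was near the bottom of the range of the series and every adenoma was above it. The values of the B6 mice were 0.11, 0.13 and 0.12 rpm (the coverage over the region scaled to the aligned reads of the library), those of N4, N5 and N6 were 0.06, 0.06 and 0.09 rpm, and those of Ad4, Ad4-1, Ad5, Ad6 and Ad7 were 0.24, 0.34, 0.34, 0.37 and 0.20 rpm. The lowest adenoma, Ad7, stood above the highest normal sample, B2, so the groups did not overlap. Adenomas averaged 0.298 ± 0.0736 rpm (SD, n = 5) against 0.0950 ± 0.0302 rpm for normal intestine (SD, n = 6), a ratio of 3.14. On the log2(rpm + 0.05) scale the ratio of means was 1.26, at the 99.2nd percentile of the 5135 hypermethylated DMRs, while the normal level was at the 0.467th percentile. The signal was low in count: 4.63 to 13.1 fragments of 300 bp per 500 bp window in adenoma and 1.81 to 4.63 in normal samples. Ad7 and B2 both stood at 4.63 fragments, so their gap came from scaling to library size and lay within counting error. Counting alone then gives a relative SD of 33.6% in adenoma for a window of 500 bp. The observed spread over the DMR was 24.7%, below that value. The DMR is 750 bp long and holds more fragments than a window, so its own counting error is lower than 33.6%. Both windows were similar, with ratios of 3.09 (68 bp upstream to 431 bp downstream) and 3.13 (182 to 681 bp downstream).

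At *Grm7* the adenomas were close together and the normal samples were not. The B6 values were 0.22, 0.35 and 0.26 rpm, the APCMin normal values 0.29 (N4), 0.04 (N5) and 0.24 rpm (N6), and the adenoma values 0.47, 0.40, 0.42, 0.43 and 0.40 rpm in the order Ad4, Ad4-1, Ad5, Ad6 and Ad7. The groups did not overlap in the merged region, where 0.40 rpm in the lowest adenomas stood beside 0.35 rpm in B2. That gap was smaller than the counting error of a window of 500 bp, which was 28.1% of the mean in adenoma and 35.2% in normal samples. Over the 750 bp of the DMR the counting error is lower than these values. Mean signals were 0.424 ± 0.0288 rpm for adenoma (SD, n = 5) and 0.233 ± 0.105 rpm for normal samples (SD, n = 6), with a ratio of 1.82 and a log2 ratio of 0.74. N5 was at 0.147 times the mean of the other normal samples, a value that stands for 1.75 fragments in a window. Without N5 the normal mean was 0.272 ± 0.0507 rpm and the ratio 1.56. In the single windows the groups met: Ad4-1 and B2 both had 0.42 rpm in the window from 176 to 675 bp, and in that from 426 to 925 bp Ad7 had 0.26 rpm and B2 had 0.28 rpm. Input DNA, which was not immunoprecipitated, over this region gave 0.37 rpm for B3, 0.07 rpm for N4 and 0.24 rpm for Ad7. The B3 input value was thus above the B3 MeDIP value of 0.26 rpm. That input library held 3228908 uniquely aligned reads, beside 20080749 in the B3 MeDIP library. The input value therefore rests on very few fragments, and no difference is read from it. The part of uneven background in the *Grm7* values was not tested.

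The *Hand1* DMRs were already strongly pulled down in normal intestine. In the promoter DMR the B6 values were 1.02, 1.78 and 1.19 rpm, those of N4, N5 and N6 1.32, 0.99 and 1.65 rpm, and those of the adenomas 1.80, 1.72, 1.87, 1.88 and 1.83 rpm. The adenomas thus lay within a narrow band, and B2 reached into it, above Ad4-1. Adenomas averaged 1.82 ± 0.0644 rpm (SD, n = 5) against 1.32 ± 0.327 rpm for normal intestine (SD, n = 6), a ratio of 1.37 and a log2 ratio of 0.44, at the 18.8th percentile of hypermethylated DMRs. The coefficient of variation was 3.54% in adenoma, below the 13.6% that counting alone would give, and 24.7% in normal intestine, above the 14.8% from counting. The normal level was at the 99.4th percentile of hypermethylated DMRs.

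In the *Hand1* gene body, the B6 values were 1.68, 2.36 and 1.85 rpm, the APCMin normal values 1.5, 1.02 and 2.09 rpm, and the adenoma values 2.72, 2.79, 2.50, 2.31 and 2.68 rpm. B2 again met the adenomas, exceeding Ad6, and N5 was the lowest sample. Mean signals were 2.60 ± 0.194 rpm for adenoma (SD, n = 5) and 1.75 ± 0.469 rpm for normal samples (SD, n = 6), a ratio of 1.49 and a log2 ratio of 0.56, or a ratio of 1.37 without N5. The adenoma was higher in 29 of the 30 pairs of an adenoma and a normal sample at each *Hand1* DMR, and in 30 of 30 at the other 3 DMRs. Both windows of the gene body were alike, at ratios of 1.46 and 1.52.

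At *Pdpn* the difference was small against a moderate level. The values were 0.42, 0.43 and 0.36 rpm in the B6 mice, 0.28, 0.41 and 0.41 rpm in N4, N5 and N6, and 0.64, 0.62, 0.46, 0.57 and 0.53 rpm in the adenomas. Ad5, the lowest adenoma, was 0.46 rpm against 0.43 rpm in B2, so the groups lay side by side without overlap. Adenomas averaged 0.564 ± 0.0723 rpm (SD, n = 5) against 0.385 ± 0.0568 rpm for normal intestine (SD, n = 6), a ratio of 1.46 and a log2 ratio of 0.50, at the 34.9th percentile. The gap of Ad5 to B2 was smaller than the counting error, which was 24.4% of the mean in adenoma and 27.4% in normal samples. N5 did not depart here, at 1.08 times the mean of the other normal samples.

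**Figure D3:**
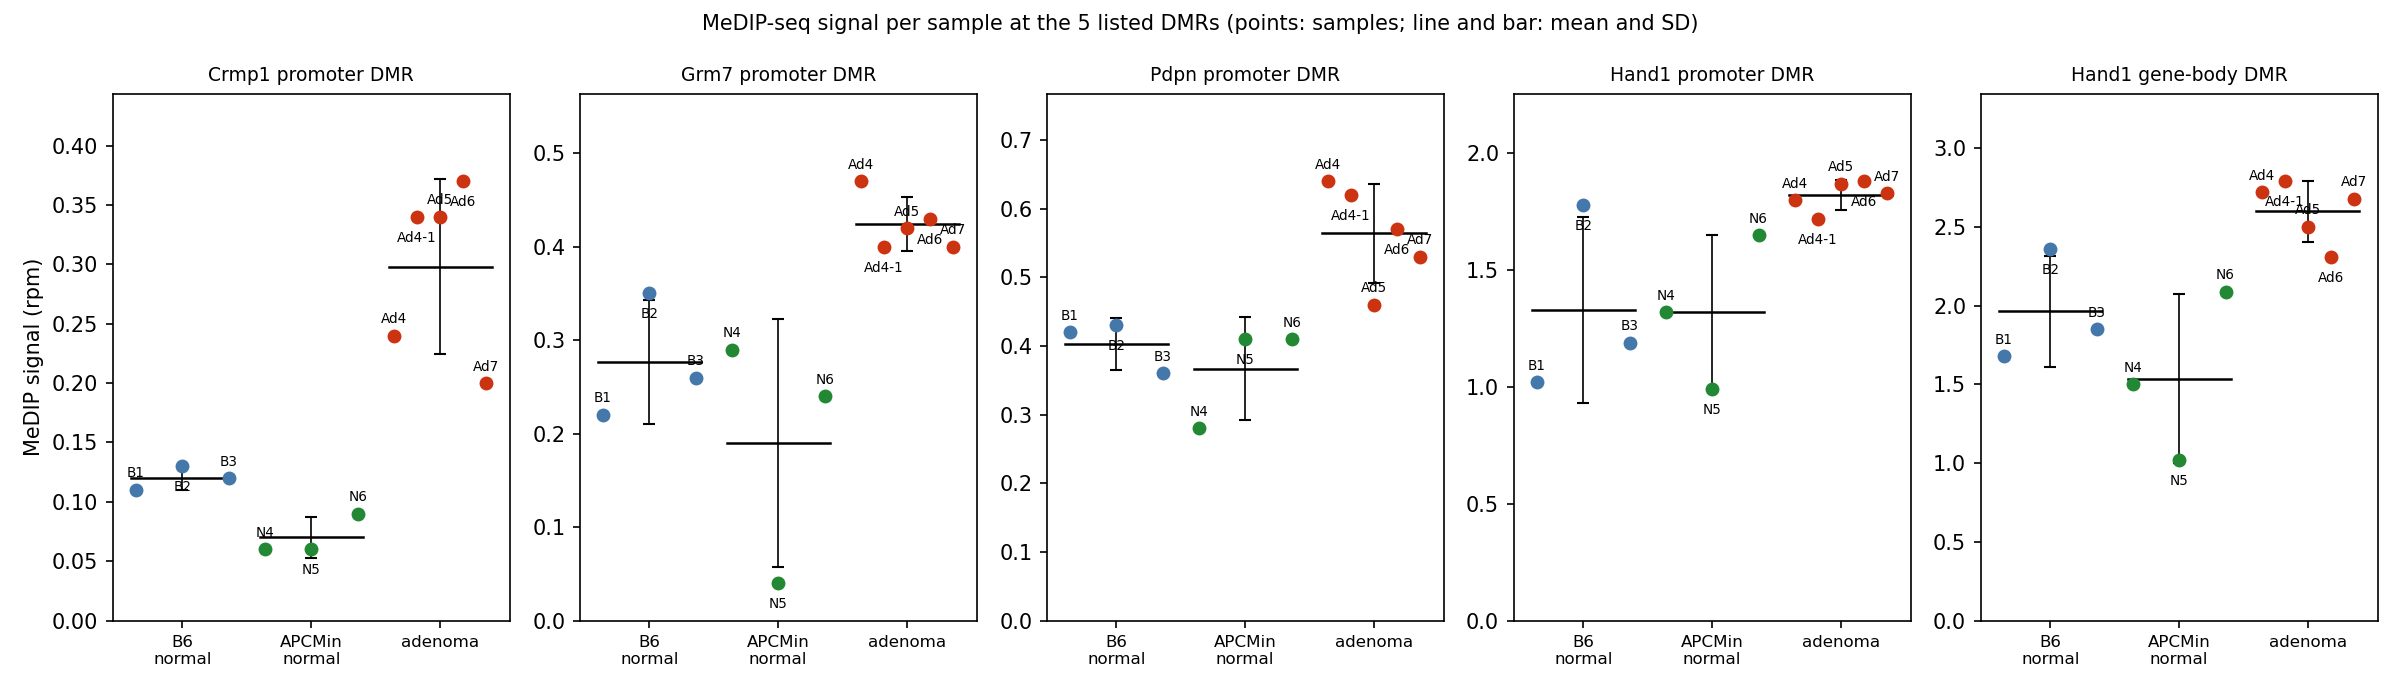
MeDIP signal in rpm (vertical axes, each from 0) of every sample at the 5 DMRs, with B6 normal, APCMin normal and adenoma samples in columns, and the mean with SD as line and bar. The adenomas lie above all normal samples at *Crmp1*, *Grm7* and *Pdpn*, while B2 reaches the lowest adenoma at both *Hand1* DMRs.

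Groups did not overlap at 3 of the 5 DMRs, beside 44.5% of all 5135 hypermethylated DMRs, and at 3 of the 8 windows. The count describes regions listed by a rank test on these samples, and no more is read from it. Without B2 the groups did not overlap at any of the 5 DMRs. Leaving out a sample can only raise such a count or leave it the same. The shares over all hypermethylated DMRs without B2 and over all listed windows were not computed, so nothing is read from these counts. The member closest to the listing limits was the *Hand1* promoter window, with a ratio of 1.37, where the lowest ratio of any listed hypermethylated window was 1.32. For level it was the *Crmp1* window nearest the start, with an adenoma mean of 0.278 rpm beside a lowest value of 0.248 rpm among listed windows. Windows that missed the limits were not analysed here.

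**Figure D4:**
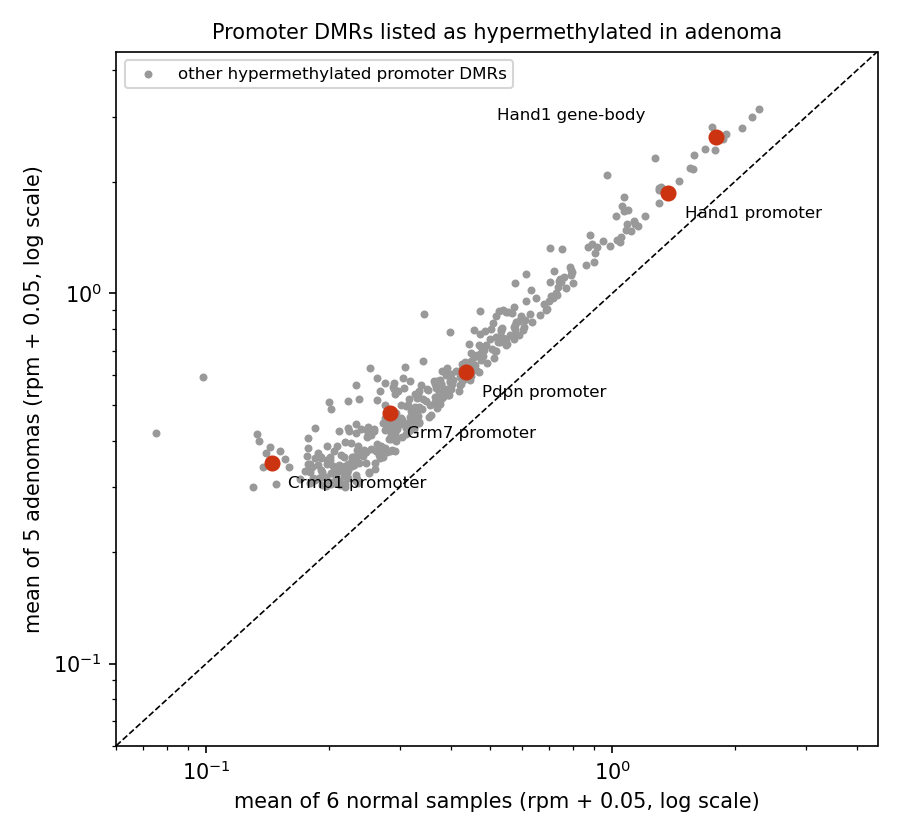
Mean of 6 normal samples (horizontal) against mean of 5 adenomas (vertical), both as rpm + 0.05 on log axes, for the 405 hypermethylated promoter DMRs; the 5 DMRs of the 4 genes are in red and the dashed line marks equal values. *Crmp1* sits at the low end of normal levels and far above the line, and both *Hand1* DMRs sit at the high end and closer to it.

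Comparison within the same mouse, using samples that entered the listing, gave the adenoma as higher in every pair, although by unequal amounts. For *Crmp1* the log2 ratios were 1.40 (Ad4 over N4), 1.83 (Ad4-1 over N4), 1.83 (Ad5 over N5) and 1.58 (Ad6 over N6). *Grm7* gave 0.61, 0.40, 2.38 and 0.73 in the same order, the largest being that of N5. At *Pdpn* the pairs of animal 4 gave 1.06 and 1.02, while those of animals 5 and 6 gave 0.15 and 0.43. The *Hand1* promoter gave 0.43, 0.37, 0.88 and 0.18, and its gene body 0.84, 0.87, 1.25 and 0.14, so animal 6, whose normal sample N6 was high, had the smallest difference at both. The mean over the 3 animals with the animal as a replicate block was 1.67 for *Crmp1*, 1.21 for *Grm7*, 0.49 for the *Hand1* promoter, 0.75 for its gene body and 0.54 for *Pdpn*, each larger than the log2 ratio over all 11 samples. These means leave out the B6 mice and Ad7, and against the APCMin normal samples without pairing the ratio was 1.54 for *Crmp1*, 0.98 for *Grm7*, 0.45 for the *Hand1* promoter, 0.74 for its gene body and 0.56 for *Pdpn*. The library codes of the labels begin with a number whose meaning is not stated, and only the number 4 was shared by several samples of each tissue. Within those libraries (B1, B2, N4, Ad4 and Ad4-1) the log2 ratio of adenoma over normal samples was 1.18 for *Crmp1*, 0.53 for *Grm7*, 0.35 for the *Hand1* promoter, 0.56 for its gene body and 0.67 for *Pdpn*. Ad4 and Ad4-1, separate adenomas of 1 mouse, differed by 0.10 rpm at *Crmp1* and 0.07 rpm at *Grm7*, and by 0.02 rpm at *Pdpn*.

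**Figure D5:**
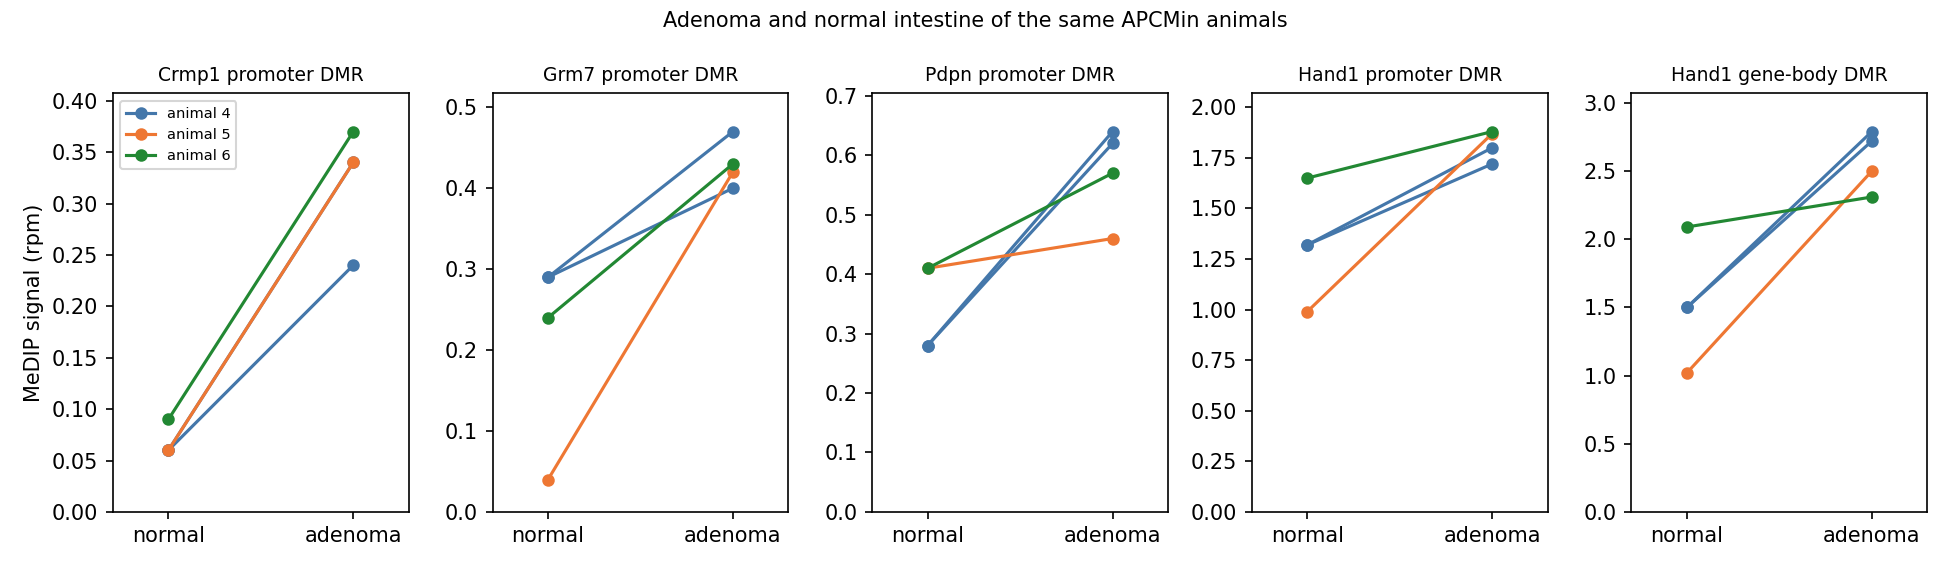
MeDIP signal in rpm (vertical axes, from 0) of normal intestine and adenoma of animals 4 (blue, with both adenomas), 5 (orange) and 6 (green) at the 5 DMRs, matched samples joined by lines; at *Crmp1* the lines of Ad4-1 and Ad5 coincide. Every line goes up, most steeply for animal 5 at *Grm7*, where N5 was at 0.04 rpm, and least for animal 5 at *Pdpn* and animal 6 at *Hand1*.

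The samples of normal intestine allow a comparison of APCMin with B6 mice, which was not itself the contrast used to choose the regions. The choice still limits it, because the rank test pooled both normal groups against adenoma. A region where APCMin normal tissue resembled adenoma was unlikely to be listed, so the counts below hold for listed regions only. Over all 13980 DMRs, limma on log2(rpm + 0.05) called 0 regions at an adjusted p (Benjamini-Hochberg) under 0.05, or 0% of those tested, and 629 (4.5%) had an unadjusted p under 0.05. The difference of APCMin minus B6 on the log2 scale was -0.51 ± 0.19 (SE) at *Crmp1*, -0.64 ± 0.36 at *Grm7*, -0.39 ± 0.24 in the *Hand1* gene body, 0.00 ± 0.24 at the *Hand1* promoter and -0.14 ± 0.20 at *Pdpn*, each with an adjusted p of 0.999 in limma. *Crmp1* had the smallest unadjusted p, 0.0167 in limma, with 0.0700 ± 0.0173 rpm in APCMin and 0.12 ± 0.01 rpm in B6 mice (SD, n = 3 each). In the two-sided exact permutation test on rpm it reached p = 0.100, which is the smallest that 3 against 3 samples allow. The other exact permutation p-values were 0.500 for *Grm7*, 0.400 for the *Hand1* gene body, 1.00 for the *Hand1* promoter and 0.500 for *Pdpn*. The difference at *Grm7* was -0.04 without N5, and the one in the *Hand1* gene body -0.13. The difference at *Crmp1* rests on 1.81 to 4.63 fragments per window and did not pass the correction.

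The 4 genes differed in their membership of target sets that were defined outside these samples, 4 of them in embryonic stem cells. *Crmp1*, *Grm7* and *Hand1* were in the set of 1021 protein-coding genes marked by H3K27me3, the Polycomb mark, in human embryonic stem cells, which holds 4.56% of protein-coding genes and 46 of the 401 with a hypermethylated promoter DMR (11.5%). *Grm7* and *Hand1* were among the targets of EED, a core subunit of Polycomb repressive complex 2 (4.16% of protein-coding genes). *Hand1* alone of the 4 was in the set of Polycomb targets of mouse embryonic stem cells (2.11%), and *Grm7* alone in the PRC2 set of human cells (2.68%). *Crmp1* and *Hand1* were targets of TET1, the enzyme that oxidises 5-methylcytosine (8.47%). None of the 4 was an MLL target (2.52%), and *Pdpn* was in none of the 6 sets.

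Lists of genes of the same pathways held 0 or 1 gene with a listed promoter DMR in each direction. Of 14 genes of the CRMP family and semaphorin signalling, 1 had a hypermethylated promoter DMR, *Plxna1*, which encodes a semaphorin co-receptor (0.320 ± 0.115 rpm for 5 adenomas against 0.187 ± 0.0175 rpm for 6 normal samples, ± SD), and 1 a hypomethylated one, the kinase gene *Fyn* (0.276 ± 0.0416 and 0.443 ± 0.118 rpm). Both lay at the start of an inner transcript and were lost when only the 5′ end of the gene was counted. Each was 7.14% of the list, beside 1.79% and 1.85% of protein-coding genes. Counting bodies too, 6 of these 14 genes (42.9%, beside 11.1% of protein-coding genes) had a hypermethylated and 4 (28.6%, beside 14.2%) a hypomethylated DMR, and nothing particular to the list is read from counts this small. Among 12 metabotropic glutamate receptors and partners, none had a promoter DMR. Counting bodies too, 2 (16.7%, beside 11.1%) had a hypermethylated DMR, among them the scaffold gene *Homer2* (log2 ratio 0.52). A hypomethylated one was found in 1 (8.33%, beside 14.2%). Of 14 Hand partners and related bHLH genes, the E-protein gene *Tcf4* alone (7.14%) had DMRs, 1 hypermethylated and 6 hypomethylated, all in its body. The 12 partners of podoplanin and genes of lymphatic endothelium held no hypermethylated DMR, while the promoter of the tetraspanin gene *Cd9* (0.174 ± 0.0416 rpm for adenoma against 0.392 ± 0.0875 rpm for normal samples) held a listed hypomethylated DMR, as did the bodies of *Cd44*, the hyaluronan receptor, and *Ezr*, which links the membrane to actin.

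A supplementary list of conserved hypermethylated promoters holds 48 genes, with *Crmp1*, *Grm7*, *Hand1* and *Pdpn* among them. The study drew its candidates from promoter calls on these mouse samples. It then kept those in the core of the enrichment for promoter hypermethylation in human colon cancers, which are not in this series. The counts are therefore not independent evidence of the direction in the mouse. Of its other 44 genes, 8 (18.2%) had a listed hypermethylated promoter DMR, beside 1.79% of protein-coding genes, and none had a hypomethylated one. They were *Galnt13* (log2 ratio 1.18), *Qk* (1.16), *Cdh7* (0.98), *Slc46a3* (0.91), *Cbln4* (0.84), *Limd2* (0.72), *Fam135b* (0.70) and *Pcdhb1* (0.69). *Crmp1*, at 1.26, was above all 8 and *Grm7*, at 0.74, was within their range, while *Hand1* and *Pdpn* were below all 8. This order holds for the pseudocount of 0.05 rpm. With 0.5 rpm *Crmp1* was at 0.42 and no longer above all 8. At that setting the adenoma and normal means of *Qk* (0.540 and 0.213 rpm) and *Cdh7* (0.738 and 0.348 rpm) give larger ratios. The full order was not recomputed. The 6 other biomarkers named with the 4 genes had no listed promoter DMR. Of these, 2, the cadherin genes *Pcdh17* and *Cdh4*, had a hypermethylated DMR in the body, with log2 ratios of 1.00 and 0.59. *Cdh4* also had 5 hypomethylated ones. The list of the study rests on reads counted over the whole promoter, at other limits than those for the windows of 500 bp. A gene of that list without a listed promoter DMR, among the 44 or these 6, therefore does not contradict its call.

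The promoter DMRs whose log2 values ran most alike over the 11 samples were sought among 400 hypermethylated promoter DMRs of other genes. All of them were listed for the same contrast, which by itself gives a positive correlation: the median Pearson's r was 0.75 for *Crmp1*, 0.59 for *Grm7*, 0.68 for *Hand1* and 0.65 for *Pdpn*. The highest r was 0.93 for *Crmp1*, with *Ndn*, followed by *Ccdc9* and *Cdh23* at 0.92. *Grm7* ran most like *Vav1* (0.98), *Fam135b* and *Dgkz* (both 0.96), *Hand1* like *Gm9797* and *Gm10775* (0.95) and *Plch2* (0.94), and *Pdpn* like *Lrba* (0.94), *Miip* (0.93) and *Epsti1* (0.92). Among the 6 normal samples alone, which share library N5, r was 0.87 between *Grm7* and the *Hand1* gene body and 0.80 between the *Hand1* DMRs, but -0.24 between *Grm7* and *Pdpn*.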

How the data were processed

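MeDIP-seq of 11 ileum samples and input DNA of B3, N4 and Ad7 were used, with groups, animals and library codes taken from the sample labels. Mice are the replicates, except that Ad4 and Ad4-1 came from 1 mouse. Single-end reads were mapped by the authors on mm9 (Bowtie 0.12.5 in the submitters' processing notes), unique hits were kept and extended to 300 nucleotides, and coverage was averaged in windows of 500 bp placed every 250 bp. The deposited rpm values are this coverage scaled to the uniquely aligned reads of each library, made by the authors for listed windows and merged DMRs only. The deposited ratio and test columns hold the authors' own comparison and were not used, and a further deposited table held column descriptions without values. The number of per-sample columns left out was 0.

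The genes and lists were chosen with earlier results of these data known. Genes came from gencode M1 on NCBIM37, the same assembly as mm9, and all regions were checked to lie within its chromosomes. Library totals and target sets came from the study's supplement. Fragment numbers were computed from rpm, library total and a fragment of 300 bp, for a length of 500 bp also where the DMR was longer. They cover counting error only. Log2 values were taken after adding 0.05 rpm. Normal samples of APCMin and B6 mice were compared with limma 3.58.1 (R 4.3.3) over 13980 DMRs, a step tested on simulated data, and with exact permutation tests (scipy 1.17.1). All listed DMRs of the 4 genes were named, and from each list genes with a promoter DMR, at most 5 per direction and 8 for the conserved list. Genes of the lists with DMRs in the body were named after their values were seen, as was *Tcf4*, and not every such gene is reported here. The 3 promoter DMRs with the highest r were named as most alike. Animals 4, 5 and 6 pair normal tissue with adenoma. Over all DMRs the deviations from the group means correlated by -0.05 to 0.03 between normal tissue and adenoma of the same mouse. Between Ad4 and Ad4-1 the correlation was -0.23. Both enter the same adenoma mean, which by itself makes such a correlation negative, so it says nothing on their likeness. The library codes of the labels begin with a number of unstated meaning, and only the number 4 (B1, B2, N4, Ad4, Ad4-1) covered more than 1 normal sample and more than 1 adenoma. Values within these libraries are given beside the results.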

Additional observations from a re-analysis of the deposited data

How the results depend on the processing

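The adenoma signal was higher than normal at all 5 DMRs of the 4 genes under every alternative tried, and no direction reversed. The regions were listed for this direction on the same samples, so the direction was largely set in advance. Only the changes in size are informative here. With a pseudocount of 0.5 rpm the log2 ratio was 0.42 at *Crmp1*, 0.33 at *Grm7*, 0.35 at the *Hand1* promoter and 0.27 at *Pdpn*, and with none it was 1.65 at *Crmp1* and 0.86 at *Grm7*. With the animal as a replicate block it was 1.67 at *Crmp1* and 1.21 at *Grm7*, while the *Hand1* promoter and *Pdpn* moved by less than 1 SD of the adenomas. At *Grm7* the ratio was 0.54 against B6 and 0.98 against APCMin normal samples. Within the libraries whose code begins with 4 it was 0.53 at *Grm7*, 0.35 at the *Hand1* promoter and 0.67 at *Pdpn*. Scaling each sample by its mean over all listed DMRs, which shifts the median of all DMRs by 0.18, gave 0.93 at *Grm7*, 0.64 at the *Hand1* promoter and 0.69 at *Pdpn*. Leaving out each sample gave 1.19 to 1.36 at *Crmp1*, 0.56 to 0.87 at *Grm7*, 0.37 to 0.54 at the *Hand1* promoter and 0.43 to 0.56 at *Pdpn*. At the *Hand1* gene body the log2 ratio of 0.56 was 0.40 against B6 and 0.74 against APCMin normal samples, 0.75 with the replicate block, 0.77 after scaling and 0.45 to 0.66 without each sample. The number of DMRs whose groups did not overlap ran from 3 to 5 without each sample, being 5 without B2. The share over all hypermethylated DMRs was not computed for these settings. Apart from the pseudocount and the samples dropped, whose effect is in their construction, the cause was not tested.

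In limma, 0 regions were called between APCMin and B6 normal intestine under each of the 11 other settings. Between 487 and 826 had an unadjusted p under 0.05, or 3.63% to 5.45% of the 10202 to 17690 regions tested. For the 4 genes the lowest adjusted p in any of them was 0.813. With 3 against 3 samples and a few fragments per window at *Crmp1* and *Grm7*, differences below the counting error were not detectable at this depth.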
